A study of Homo sapiens with 6 samples.

Results

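The chromosome 19 miRNA cluster (C19MC) gave the 10 miRNAs described here: hsa-miR-512-3p, hsa-miR-1323, hsa-miR-515-5p, hsa-miR-515-3p, hsa-miR-526b-5p, hsa-miR-525-5p, hsa-miR-518b, hsa-miR-517a-3p, hsa-miR-516b-5p and hsa-miR-517c-3p, written below without the species prefix. They are 10 of the 2549 human miRNAs on the array. By name 48 of these belong to C19MC, and 31 of the 48 are not named miR-519 or miR-520. The 10 come from those 31. They were selected on their signals, detection marks and substate differences on these same arrays. Everything said below about substates is therefore a description of values that chose the members, and no test is given for it. miR-512-3p and miR-517a-3p are called bright, since they were the members detected on all 6 arrays, and the other 8 are called dim.

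The arrays measured miRNA from exosomes, small vesicles that cells shed into their medium, of the established human ES cell line H9, a single line. Cells grew on Matrigel in TeSR-E8, and the study distinguished substate 1, with colonies of strong R-10G epitope and almost no vimentin, from substate 2, with weak R-10G epitope and vimentin present. Each of 3 experiments gave 1 array per substate. Passages were 41 and 52 (substates 1 and 2) in experiment 1, 46 and 61 in experiment 2, and 50 and 65 in experiment 3, with 72.4 ng, 100 ng and 51.4 ng of miRNA labelled per array in the 3 experiments. Substate 2 thus always came from the later passage, and substate and passage cannot be told apart. Less RNA of a miRNA per vesicle and fewer vesicles that carry it cannot be told apart either.

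C19MC is a primate cluster of related miRNA genes that is imprinted and transcribed from the paternal copy. Its miRNAs are abundant in trophoblast, which sheds them in exosomes into maternal blood, and in undifferentiated pluripotent cells, and they are low or absent in most adult tissues. A mature miRNA finds its target mRNAs mainly through its seed, the bases from position 2 to position 8, so that miRNAs with the same seed form a target family.

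The mature sequences are shown because the probes read them and because the members turn out to share stretches outside the seed. All 10 of 10 were matched in the RefSeq annotation of GRCh38.p14, and capitals mark the seed.
miR-512-3p: aAGUGCUGucauagcugagguc
miR-1323: uCAAAACUgaggggcauuuucu
miR-515-5p: uUCUCCAAaagaaagcacuuucug
miR-515-3p: gAGUGCCUucuuuuggagcguu
miR-526b-5p: cUCUUGAGggaagcacuuucugu
miR-525-5p: cUCCAGAGggaugcacuuucu
miR-518b: cAAAGCGCuccccuuuagaggu
miR-517a-3p: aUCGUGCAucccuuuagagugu
miR-516b-5p: aUCUGGAGguaagaagcacuuu
miR-517c-3p: aUCGUGCAuccuuuuagagugu

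These 10 miRNAs held 9 different seeds, and the shared seed was that of miR-517a-3p and miR-517c-3p. That pair differed at 1 base, C12U, with positions counted from 1 at the 5′ end of miR-517a-3p. The sequence of miR-517a-3p is also that of miR-517b-3p, so that its signal cannot be assigned to either gene. Outside the seed, the 4 members of the 5p arm (miR-515-5p, miR-516b-5p, miR-525-5p and miR-526b-5p) all held GCACUUU, a stretch that begins between position 13 and position 16. It was found in 20 of 2370 human mature miRNA names (0.844%), of which 15 were in C19MC. miR-517a-3p, miR-517c-3p and miR-518b held UUUAGAG, found in 20 names, 19 of them in C19MC. miR-512-3p and miR-515-3p opened their seeds with the same 5 bases, AGUGC, which 80 of the 2370 names held at some position (3.38%). Seeds were shared beyond these members as well: that of miR-518b with 4 other C19MC names, that of miR-525-5p with miR-520a-5p, that of miR-515-5p with miR-519e-5p, that of miR-515-3p with miR-519e-3p and, outside the cluster, miR-33b-3p, and that of miR-1323 with miR-548o-3p, also outside.

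The members came from 12 genes and 14 mature loci at chr19:53666729-53741390, a span of 74662 bases from MIR512-1 to MIR517C, all on the plus strand. miR-512-3p, miR-515-5p, miR-515-3p and miR-516b-5p each had 2 loci, so that their signals add up 2 genes. The gene of miR-517b-3p, whose product the probes of miR-517a-3p read as well, is not in these counts. miR-515-5p and miR-515-3p are the arms of the same hairpins. Members that share hairpins or a cluster transcript share their source and are not replicates of each other.

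Each miRNA was read by 2 or 3 probes, every one printed on several spots. Agilent Feature Extraction software subtracted the background and wrote for each miRNA a total signal in intensity units, which is the sum over those of its probes whose signal was above 3 times its error. A miRNA with no such probe was undetected and was written as 0.1. The array of substate 1 in experiment 1 carried a measured feature size fraction of 0.791 in place of the default of 0.6 on the other 5, and this alone makes its total signals 1.32 times higher. Levels are therefore given as a percent of each array's own 99th percentile over all human miRNAs, in which this factor cancels. In experiments 1, 2 and 3 that percentile was 476, 355 and 179.9 intensity units in substate 1 and 269, 282 and 125 in substate 2. Detected miRNAs numbered 594, 465 and 332 in substate 1 and 527, 470 and 310 in substate 2, out of 50980 spots for 5893 probes on each array. With 6 arrays, their number sets the limit on precision.

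miR-517a-3p, long measured in maternal blood as a placental miRNA, was the brightest member. Its level was 5.63%, 4.83% and 6.13% of the 99th percentile in experiments 1, 2 and 3 of substate 1, and 2.95%, 3.05% and 1.55% in substate 2. All 3 arrays of substate 1 lay above all 3 of substate 2, and the lowest value was that of experiment 3 in substate 2. miR-512-3p, the member at the upstream end of the span, had levels of 3.95%, 4.24% and 5.15% in substate 1 and 2.07%, 2.66% and 1.64% in substate 2. Here too the substates did not overlap, and the same array was lowest. In intensity units the total signal of miR-517a-3p was 26.8, 17.2 and 11.0 in substate 1 and 7.92, 8.60 and 1.94 in substate 2, where the first value carries the larger feature size.

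The level of miR-525-5p was 1.42%, 2.20% and 2.36% in substate 1, and it was 1.13%, 1.20% and undetected in substate 2. Its substate values came close to each other in experiment 1 and lay far apart in experiment 3. miR-518b stood at 1.78%, 1.63% and 1.53% in substate 1 against 0.499%, 0.664% and undetected in substate 2. Its 3 arrays of substate 1 were alike, with a log2 SD of 0.11, and every one was far above substate 2. Of the dim members only miR-515-5p had a smaller SD, 0.09, with its experiment 3 level raised to the floor described below. For miR-1323 the levels were 1.57%, 1.48% and 0.981% in substate 1, and 0.368%, 0.674% and undetected in substate 2. These substates did not overlap either, and the lowest array of substate 1 was that of experiment 3.

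miR-515-3p measured 1.01%, 1.11% and 1.52% in substate 1 and 0.658%, 0.349% and undetected in substate 2, with no overlap. The other arm of the same hairpins, miR-515-5p, was far dimmer, at 0.485%, 0.481% and 0.364% in substate 1, and was detected in substate 2 in experiment 1 alone, at 0.465%. Its substates overlapped, since that value exceeded 0.364%. miR-516b-5p also overlapped: its levels were 1.42%, 1.00% and 1.50% in substate 1 and 0.765%, 1.01% and undetected in substate 2. In experiment 2 its arrays were level with each other. miR-526b-5p had 1.04%, 0.994% and 0.610% in substate 1 and 0.408%, 0.347% and undetected in substate 2, and miR-517c-3p had 0.666%, 0.505% and 0.838% in substate 1 and a single detected value, 0.337%, in experiment 2 of substate 2. Where detected in substate 2, both were below all their levels of substate 1.

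**Figure D1:**
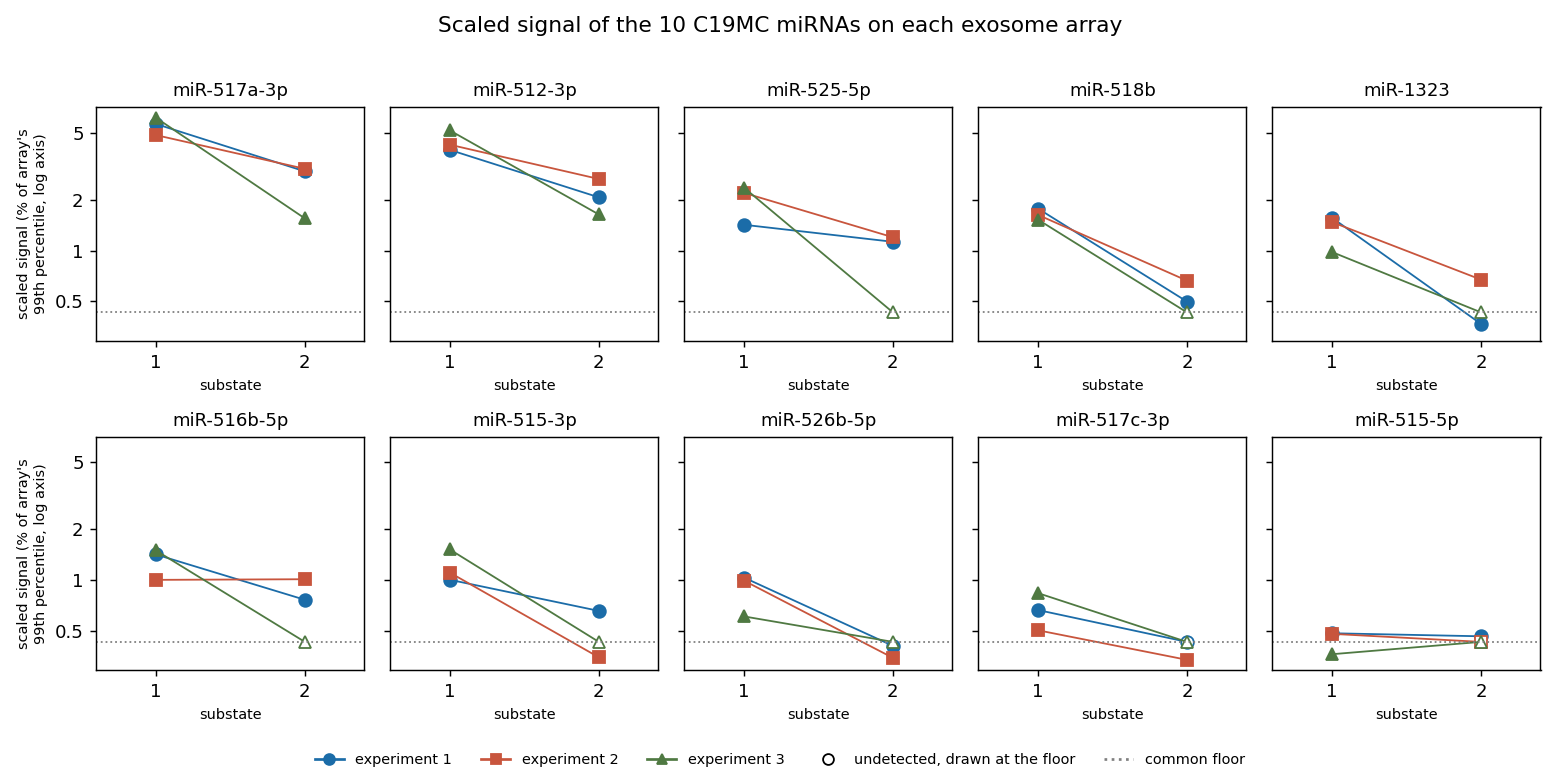
Level of each member as a percent of its array's 99th percentile (log axis) in substate 1 and substate 2. Each line joins the 2 arrays of 1 experiment, open symbols are undetected miRNAs drawn at the common floor of 0.431%, and 8 of the 10 undetected values of substate 2 belong to experiment 3.

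The order of the members in substate 1 ran from miR-517a-3p, with a mean log2 level of −4.18 ± 0.17 (SD, n = 3 arrays), through miR-512-3p with −4.50 ± 0.20 to miR-525-5p with −5.68 ± 0.40 and miR-518b with −5.93 ± 0.11. Neighbours among miR-525-5p, miR-518b, miR-1323 (−6.25 ± 0.37), miR-516b-5p (−6.28 ± 0.31) and miR-515-3p (−6.39 ± 0.31) differed by less than the larger SD of each pair. The SD of miR-518b alone was smaller than its distance to either neighbour. miR-526b-5p (−6.87 ± 0.43), miR-517c-3p (−7.25 ± 0.37) and miR-515-5p (−7.75 ± 0.09) closed the order. Of the pair that differ by C12U, miR-517a-3p was the brighter on every array. Probes differ in how well they bind, so that the order of signals need not be the order of amounts.

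All 10 members were detected on the 3 arrays of substate 1, and in substate 2 detection held for 9, 9 and 2 of 10 in experiments 1, 2 and 3. The members left in experiment 3 were the bright pair, which was defined by detection on all 6 arrays. Each member entered the test through its substate 1 arrays alone, since 3 detections were enough, so that no member had to be present in substate 2. Of all 2549 miRNAs, 328 were detected on every array of substate 1, and 39 of these (11.9%) were missed on at least 1 array of substate 2, against 8 of the 10 members. The rule that names the members states no threshold, but detection separated them from the other 21 C19MC miRNAs outside miR-519 and miR-520, of which 0 were detected on all arrays of substate 1. The nearest of them were miR-512-5p and miR-518c-5p, detected on 3 arrays each, and the members nearest to that were miR-515-5p and miR-517c-3p, detected on 4 arrays each.

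Differences between substates were taken as log2 values, substate 2 minus substate 1, after levels under a common floor of 0.431% were raised to it. The floor is the highest of the 6 lowest detected levels. miR-517a-3p had −0.93, −0.66 and −1.98 in experiments 1, 2 and 3, a mean of −1.19 ± 0.70 (SD, n = 3), and was 2.29-fold lower. The values of miR-512-3p were −0.93, −0.67 and −1.65, with a mean of −1.09 ± 0.51 (SD, n = 3), and it was 2.12-fold lower. The values of the bright pair were close in experiments 1 and 2. In experiment 3 they were further apart in total signal, but with all probes summed they were −1.53 for miR-517a-3p and −1.65 for miR-512-3p. miR-518b had the lowest mean, −1.65 ± 0.31 (SD, n = 3), from −1.83, −1.29 and −1.83, where the last value was set by the floor. With all probes summed its mean was −1.46. miR-1323 had −1.86, −1.13 and −1.19 (mean −1.39 ± 0.41, SD, n = 3). The floor set its substate 2 value in experiments 1 and 3. With all probes summed its differences were −1.46, −0.59 and −1.06, with a mean of −1.04. For these 4 the mean was larger than the spread between experiments. The mean was also larger than the spread for miR-515-3p, miR-525-5p, miR-526b-5p and miR-517c-3p, whose values follow.

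In experiment 3 the floor set the substate 2 value of every dim member. miR-515-3p had a mean difference of −1.26 ± 0.61 (SD, n = 3), from −0.61, −1.36 and −1.82. The mean of miR-525-5p, −1.22 ± 1.1 (SD, n = 3), came from −0.34, −0.87 and −2.45, and the last of these was −1.54 with all probes summed. miR-526b-5p gave −1.27, −1.21 and −0.50 (mean −0.99 ± 0.43, SD, n = 3). All its substate 2 values lay at the floor, and with all probes summed its differences were −0.96, −0.98 and −1.17. miR-516b-5p gave −0.89, 0.01 and −1.80, and its mean of −0.89 ± 0.91 (SD, n = 3) was within its spread. miR-517c-3p came to −0.61 ± 0.37 (SD, n = 3) from −0.63, −0.23 and −0.96, again with every substate 2 value at the floor. With each array's own floor its mean was −1.27, and with all probes summed its differences were −1.48, −0.64 and −0.80. miR-515-5p came to −0.07 ± 0.08 (SD, n = 3), lay at the floor on both arrays of experiment 3, and is given no fold. With all probes summed its differences were −0.11, −0.84 and −2.34, the last from signals that had mostly not passed their limit.

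**Figure D2:**
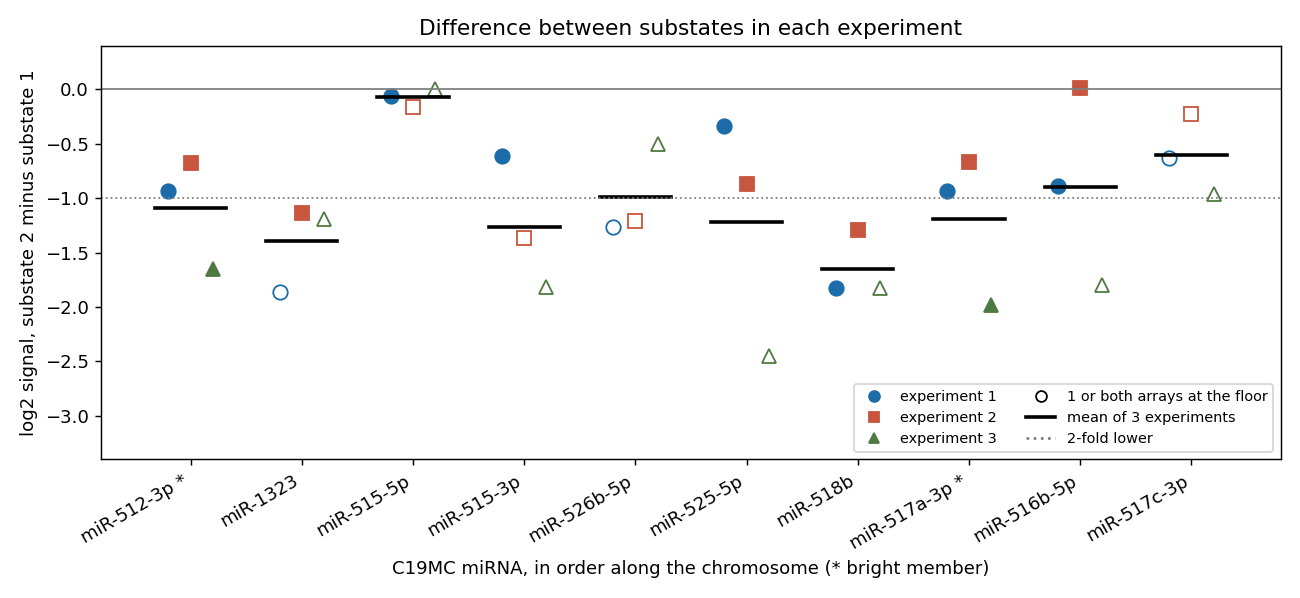
Log2 difference, substate 2 minus substate 1, of each member in each experiment, with members in their order along the chromosome. Open symbols rest on at least 1 array at the floor, bars are means over 3 experiments, and the 6 members whose bar lies under the dotted line at −1 were at least 2-fold lower, a count that was 0 with the normexp correction and its offset.

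At least 2-fold lower were 6 of the 10 members, both bright ones and 4 of the 8 dim ones (0 of 10 with the normexp correction, whose offset exceeds every mean spot signal of a dim probe), where 22 of the 474 tested miRNAs were so (4.64%). Lower in all 3 experiments were 8 of the 10 (23.4% of the tested miRNAs), and 8 of the 10 had substates without overlap and substate 2 lower when undetected levels were set to the floor (14.1% of the tested miRNAs). The substate contrast chose the members, so nothing is read from these shares. The count of 6 rested in part on experiment 3: without replicate 3 it was 3, and without replicate 1 or 2 it was 6 or 7. Without replicate 3 both bright members came to −0.80. With the sum over all probes, and a floor applied again, 4 of 10 were at least 2-fold lower. Here miR-515-3p came to −0.87 and miR-525-5p to −0.92. With that floor miR-515-5p came to −0.54 and miR-526b-5p to −0.96, and with no floor both were at least 2-fold lower on average. The median of the 10 differences was −1.14, with −0.91, −0.77 and −1.73 in the 3 experiments (SD 0.51), beside −0.01 for all tested miRNAs.

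In the fit across all 474 miRNAs, with the experiment as a block, limma called 0 lower and 0 higher in substate 2 at an adjusted p under 0.05 and at least 2-fold (0% in either direction), so that 0 members were among its calls. Since the substate contrast chose the members and no miRNA was called, nothing is read from this about the members. The smallest adjusted p was 0.139, and the unadjusted p was under 0.05 for 63 miRNAs that were lower and 46 that were higher. A paired test of each miRNA by itself, run on the same 474 miRNAs and levels, also called 0; it is not the study's own procedure, which corrected p-values over miRNAs with a 2-fold difference in values processed otherwise. In limma with no replicate block 1 miRNA was called lower, miR-519d-3p, which is not a member and is named after its value was seen.

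Another background correction shifted all tested miRNAs as well as the members. With normexp, a correction that adds an offset of 50 to every spot, the members' median was 0.24, above 0, and 8 of the 10 members were above 0. The brightest mean spot signal of a dim probe was 32.6, under that offset, and all tested miRNAs then had a median of 0.33. Several other scalings also shifted all tested miRNAs: their median was −0.51 with signal per labelled ng and −0.38 when that was computed with 1 feature size. It was −0.66 and −0.35 with the 2 pairs of spike-in controls, and −0.12 in the values deposited by the authors. Relative to these medians, the members' median was −0.10 with normexp, −1.19 for both scalings per ng, −1.15 and −1.12 for the spike-in pairs, and −2.08 in the deposited values. It was −0.36 with quantile normalization, where the median of all tested miRNAs was 0.00. In the deposited values an undetected miRNA stays at 0.1, far under the floor used here.

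**Figure D3:**
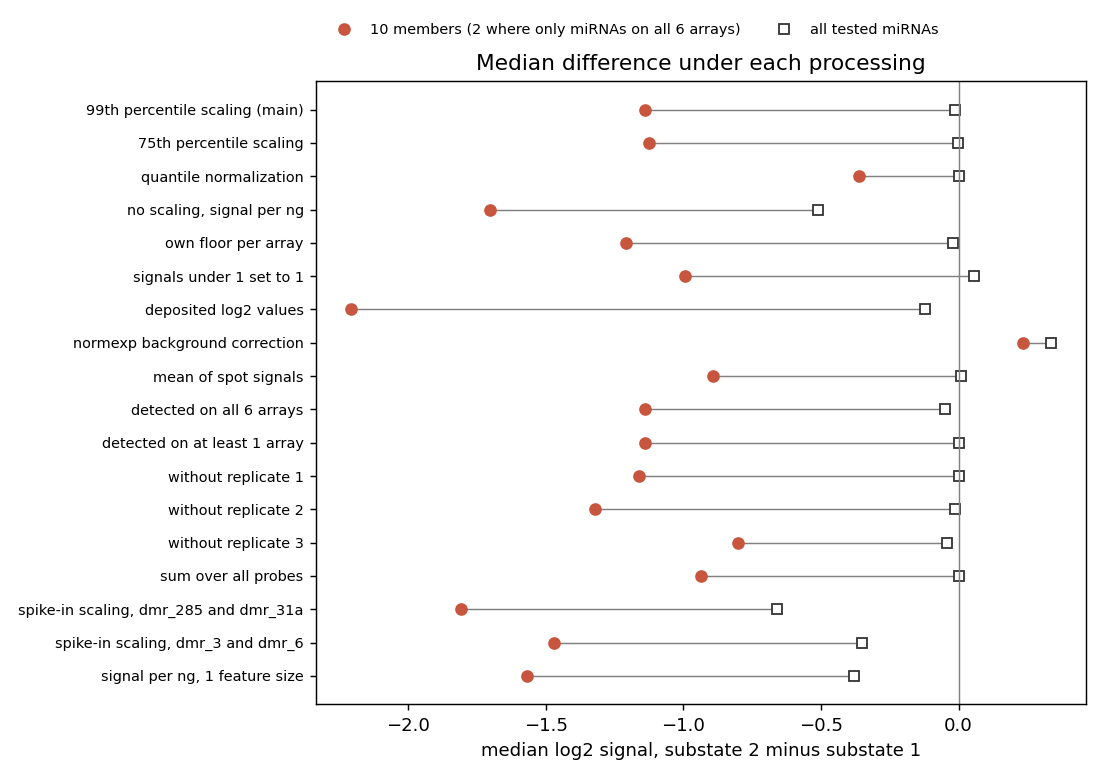
Median log2 difference, substate 2 minus substate 1, of the members (filled circles) and of all tested miRNAs (open squares) under each processing. The members' median lay below that of all tested miRNAs throughout, and it lay above 0 with the normexp correction, at 0.24.

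Values of bright and dim members are given side by side with no test, since the split itself rests on detection in substate 2. Averaged over its 2 miRNAs, the bright pair had −0.93, −0.67 and −1.82 in the 3 experiments, and the dim group had −0.94, −0.78 and −1.32. Bright minus dim was 0.00, 0.11 and −0.50, with a mean of −0.13 ± 0.33 (SD, n = 3), which is within the spread between experiments. That mean depended on the processing: it was 1.04 in the deposited values and −0.80 with quantile normalization. Within the dim group the values ran from −1.86 to −0.06 in experiment 1, from −1.36 to 0.01 in experiment 2 and from −2.45 to 0.00 in experiment 3, a wider range than that between the groups. Of the 8 dim members, 3 were below both bright ones and 5 above both in experiment 1, 5 and 3 in experiment 2, and 1 and 4 in experiment 3.

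Floor values had a large part in the dim group. Of its 24 values in substate 2, 15 lay at the floor, 10 of them undetected and 5 detected below it, against 1 of 24 in substate 1. Both arrays of a pair detected a dim member in 7 of 8 pairs in experiments 1 and 2 and in 0 of 8 in experiment 3. For these pairs the ratio needs no common floor, and the dim mean was −1.02 in experiment 1 and −1.01 in experiment 2, so that bright minus dim was 0.09 and 0.34. A failed probe is left out of the total, however, so that some ratios set 2 probes against 1. This held for miR-518b, miR-1323 and miR-526b-5p in both experiments and for miR-515-3p in experiment 2. With all probes of all 8 dim members summed, bright minus dim was −0.02 and 0.06. Experiment 3 gave no pair detected on both arrays.

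Nor was the floor an upper limit for undetected levels in experiment 3. On the substate 2 array a dim probe needed a median of 0.695% of the 99th percentile to pass 3 times its error, above the floor of 0.431%, where the median limit was 0.568% in substate 1 of the same experiment and 0.257% to 0.318% on the other 4 arrays. When the signals of all probes were summed, whether or not they passed, 6 of the 8 dim members lay above the floor on that array, from 0.153% for miR-515-5p to 0.813% for miR-525-5p over all 8. These sums, taken after the values were seen, give a ratio with no floor for every member and array. Their dim mean was −0.91, −0.73 and −1.42 in the 3 experiments, the bright mean was −0.93, −0.67 and −1.59, and bright minus dim was −0.05 ± 0.12 (SD, n = 3). By these sums 9 of the 10 members were lower in all 3 experiments, and the exception was miR-516b-5p, with 0.01 in experiment 2. No share over all tested miRNAs is given for these sums, and nothing is read from this count. The largest change was that of miR-515-5p in experiment 3, from 0.00 at the floor to −2.34 in a sum of signals that had mostly not passed their limit.

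The single probes give the readings behind these values. Of 22 probes, 16 passed the limit on all 3 arrays of substate 1 and 3 on all 3 arrays of substate 2, while 5 passed on no array of substate 2. By array, 20, 20 and 16 probes passed in substate 1 and 16, 14 and 3 in substate 2. Detection was among the values that chose the members and no share over all probes is given, so nothing is read from these counts.

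The mean spot signal scaled per array was lower in substate 2 in all 3 experiments for 19 of the 22 probes, in 2 experiments for 2 and in 1 for 1. That last one was the second probe of miR-517c-3p, whose mean spot signal never exceeded 1.32 intensity units and which passed on no array. The substate contrast chose the members, and no share over all probes is given, so nothing is read from these counts either. The first probe of miR-517c-3p read 17.0, 12.7 and 10.7 intensity units in substate 1 and 4.92, 6.63 and 3.87 in substate 2. The total signal of miR-517c-3p is thus the reading of a single probe. The first probe of miR-517a-3p read 102, 86.4 and 56.8 in substate 1 and 41.3, 45.2 and 13.7 in substate 2, and its second probe 42.1, 34.9 and 21.2 against 14.7, 14.4 and 4.45. Its second probe failed its limit on the last of these arrays, so that the total signal of miR-517a-3p there comes from the first alone. With both probes summed its level on that array was 2.13% in place of 1.55%, and its difference in experiment 3 was −1.53 in place of −1.98. The probes of miR-512-3p both passed on all 6 arrays and read 7.20 and 6.84 intensity units on that array.

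**Figure D4:**
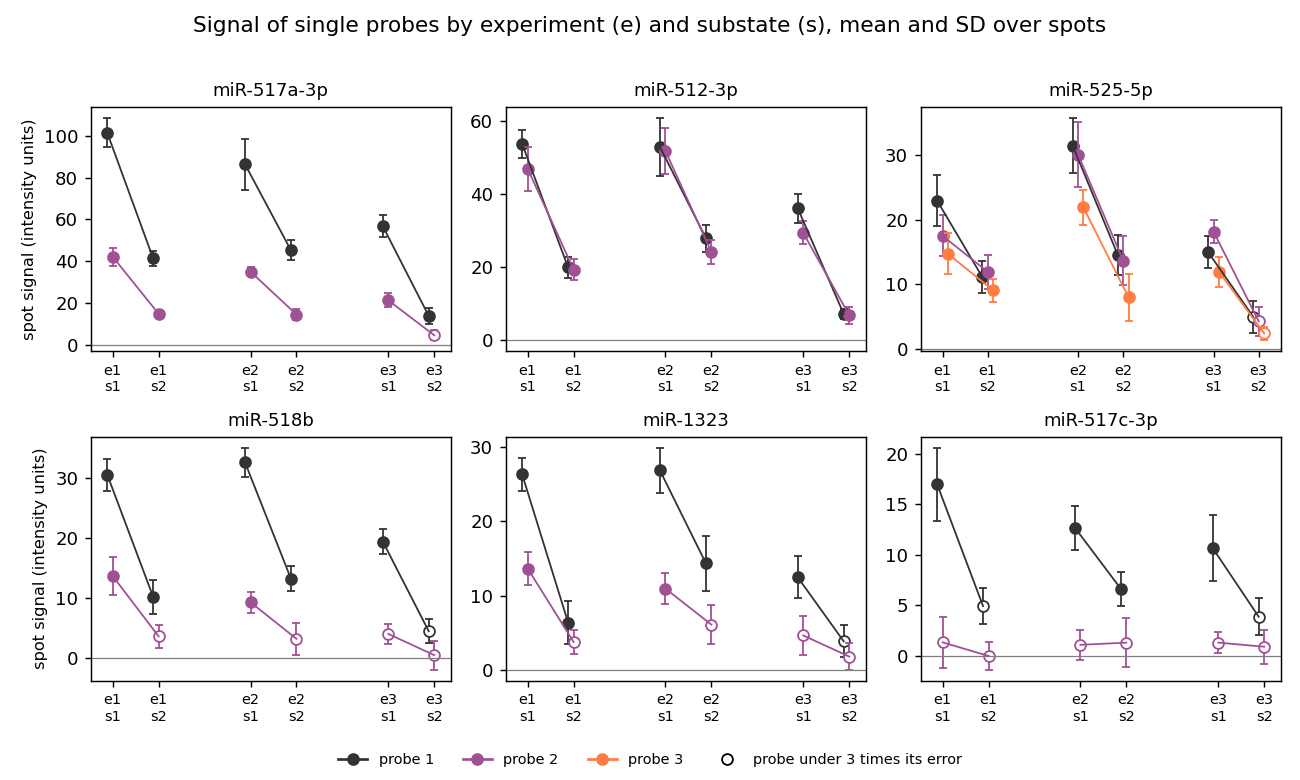
Background-subtracted signal of single probes of 6 members, as mean and SD over the spots of a probe, by experiment (e) and substate (s). Open symbols mark probes under 3 times their error, and the second probe of miR-517c-3p stayed near 0 throughout.

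Single spots of the dim members often did not stand out from the background. Of their 160 spots per array, the software marked 128, 106 and 45 as well above background in substate 1 and 42, 41 and 0 in substate 2 (experiments 1, 2 and 3). All 40 spots of the bright pair were so marked on 5 arrays, and 7 of 40 in experiment 3 of substate 2, all of them from the first probe of miR-517a-3p. The total signal of the bright pair was 4.72 and 5.53 times its error on that array and at least 10.7 times its error on each of the other 5. Over all human miRNA spots the share well above background was 16.9%, 12.6% and 9.07% in substate 1 and 14.8%, 12.8% and 8.39% in substate 2.

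**Figure D5:**
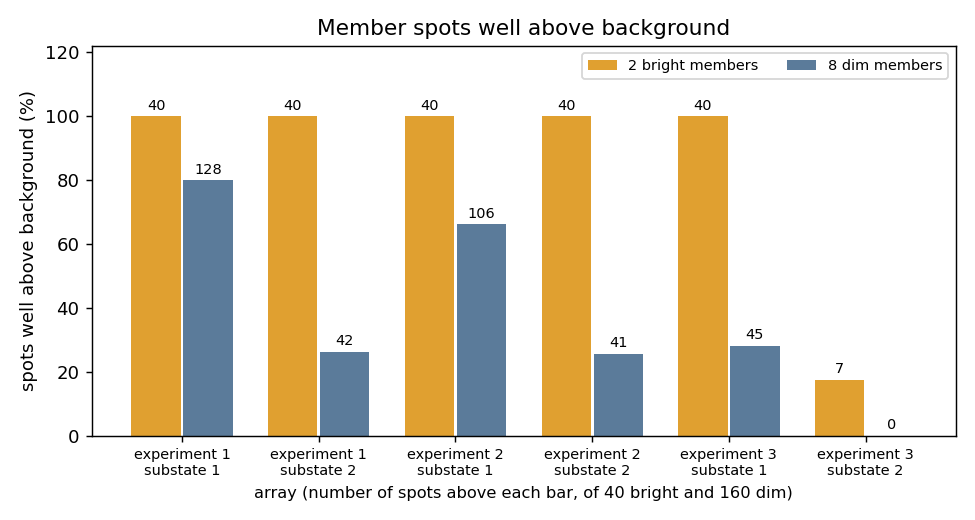
Percent of member spots that the software marked as well above background on each array, for the 40 spots of the bright pair and the 160 spots of the dim members, with the number of marked spots above each bar. On the array of experiment 3, substate 2, it was 7 bright spots and 0 dim ones.

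Array-wide signals moved with the substate too. The 99th percentile was lower in substate 2 by a log2 difference of −0.43, −0.33 and −0.52 in the 3 experiments once both arrays of experiment 1 were put on 1 feature size. On the same 1 feature size, the summed signal of the spike-in controls dmr_285 and dmr_31a differed by 0.51, 0.11 and 0.20, and that of dmr_3 and dmr_6 by 0.02, −0.25 and −0.08. The part of these array-wide differences in the members' values was not tested. Set against either pair of spike-ins, 9 of the 10 members were at least 2-fold lower, with medians of −1.81 and −1.47, where 139 and 59 of the 474 tested miRNAs were so.

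The members' levels were also set side by side over the 3 experiments. All members were detected in substate 1 of every experiment, and detection was among the values that chose them, so nothing is read from their count here. In limma, with substate in the fit, 0 of the 474 miRNAs were called between experiments at an adjusted p under 0.05 (0%), and 119 had an unadjusted p under 0.05. Of these 119, 0 were members. miR-1323 had mean log2 levels over both substates of −6.93, −6.65 and −7.26 in experiments 1, 2 and 3. The means of miR-512-3p were −5.13, −4.90 and −5.11, and those of miR-517a-3p were −4.62, −4.70 and −5.02. The count of members differed with other processing: 3 members, and 234 of the 474 tested miRNAs, were called when the arrays were scaled by the spike-ins dmr_3 and dmr_6, and 10 members and 390 miRNAs with normexp. Experiment goes with passage and labelled amount, and experiment 1 differs from the others also in slide and software version, and these cannot be told apart.

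In the rest of the cluster, 38 other C19MC miRNAs were on the array, of which 20 were never detected, 18 were detected on at least 1 array, and 0 on the array of experiment 3 in substate 2. With the members, 28 of 48 were detected, and 11 of the 20 tested were at least 2-fold lower. The miRNAs named miR-519 or miR-520, from the same cluster, had 8 of 17 tested, 5 of the 8 at least 2-fold lower and a median of −1.19, against −1.14 for the members. No test of a difference between these groups was made, since that contrast chose the members. The brightest of the others were miR-520c-3p, with 2.14%, 2.10% and 3.37% in substate 1 and 1.35%, 1.44% and undetected in substate 2, and miR-520h, with 2.00%, 2.06% and 2.83% against 0.889%, 1.32% and undetected. Both were lost on the same array as the dim members. The summed level of all C19MC miRNAs was 32.8%, 30.9% and 34.2% of the 99th percentile in substate 1 and 14.7%, 15.3% and 3.19% in substate 2.

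The miRNAs most like the members over the 6 arrays were sought among 287 outside C19MC that were detected on all 6, by Pearson r with the mean of the 10 members. They were miR-4669 (r = 0.952), miR-7107-5p (0.948), miR-6831-5p (0.941), miR-4644 (0.940) and miR-6763-5p (0.934), with n = 6 arrays each, where the median r of the 287 was 0.05. The arrays fall into the same substates and experiments for all of them, so that a shared difference between substates gives a high r by itself. miR-7107-5p, a far brighter miRNA, had 149.7% of the 99th percentile, 138% and 100.1% in substate 1 and 51.8%, 54.6% and 42.0% in substate 2. miR-4644 had 3.85%, 2.21% and 2.94% against 1.19%, 1.25% and 1.00%, and it was detected where the dim members were not. Mean log2 differences were −0.55 for miR-4669, −1.37 for miR-7107-5p, −0.53 for miR-6831-5p, −1.36 for miR-4644 and −0.94 for miR-6763-5p. Among the members themselves r ran from 0.06 to 0.97 over 45 pairs, with a median of 0.78, and it was 0.96 for the bright pair.

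Other miRNAs of pluripotent cells were set beside the members. The group of miR-302 and miR-367 had 8 of 12 miRNAs detected, all 8 on all 6 arrays, and a median difference of −0.33, with 0 at least 2-fold lower. Its brightest miRNAs were miR-367-3p, with 254%, 236% and 405% of the 99th percentile in substate 1 and 196%, 478% and 405% in substate 2, and miR-302a-3p, with 358%, 250.0% and 403% against 247%, 298% and 234%. These levels overlapped between substates, and in experiment 2 both miRNAs were higher in substate 2, where 9 of the 10 members were lower. The miR-371 to miR-373 group had 4 of 8 detected and 2 tested, with a median of −0.02. Of these miR-371b-5p was at 9.69%, 14.2% and 17.9% in substate 1 and 10.7%, 15.2% and 18.1% in substate 2, and miR-371a-5p was detected in experiments 1 and 2 alone, at 1.11% and 0.851% against 1.65% and 0.339%.

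Marker lists for the cells that could have shed the vesicles gave the following. Of 8 markers of human ES cells, 7 were detected, with miR-367-3p the brightest in mean total signal and miR-302a-3p brighter on 3 of 6 arrays, and 1, miR-372-3p, on no array. Their summed level was 1176%, 855% and 1397% of the 99th percentile in substate 1 and 814%, 1209% and 1002% in substate 2. Of 6 neural markers 2 were detected, miR-124-3p and miR-128-3p, and miR-9-5p, miR-9-3p, miR-137 and miR-219a-5p were on no array. Their summed level was 3.15%, 2.93% and 2.93% in substate 1 and 3.49%, 6.25% and 3.57% in substate 2, higher in each experiment. miR-124-3p had 1.57%, 1.64% and 2.00% against 2.04%, 3.25% and 2.59%, and miR-128-3p had 1.59%, 1.29% and 0.926% against 1.45%, 3.01% and 0.985%. The first was higher in substate 2 in all 3 experiments, and the second was lower in experiment 1. The part of neural cells in the members' values was not tested.

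Of 6 mesenchymal markers 2 were detected, miR-145-5p on 3 arrays and miR-199a-3p on 1. Their summed level was 0.361%, 0.297% and 0 in substate 1 and 0.307%, 0.451% and 0 in substate 2, near or under the floor, while miR-143-3p, miR-214-3p, miR-199a-5p and miR-10b-5p were on no array. Of 4 endoderm and liver markers only miR-192-5p was detected, on 1 array, at 0.366% in experiment 2 of substate 2, and miR-122-5p, miR-375 and miR-194-5p were not. Of 5 blood markers only miR-486-5p was detected, at 0.761% and 0.946% in substate 1 in experiments 1 and 2 and at 0.297% in experiment 1 of substate 2. The defining blood miRNAs miR-451a, miR-144-3p, miR-223-3p and miR-142-3p were on no array. The summed level of the members was at least 18.5% in substate 1 and 9.31%, 10.3% and 3.19% in substate 2, where the neural list stood at 3.57% on the last of these arrays.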

How the data were processed

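Each array gave 1 intensity per spot, and the authors deposited Agilent Feature Extraction files in intensity units, background-subtracted and not normalised between arrays. Software version 12.0.3.2 was used for experiment 1 and 11.5.1.1 for experiments 2 and 3. The total signal of every detected miRNA equalled the sum of its probes above 3 times their error, within 0.001. The processed values deposited by the authors are log2 of the total signal over a constant per array, with medians of −12.73, −12.06 and −11.37 in substate 1 and −11.77, −12.14 and −10.88 in substate 2. The paper names signals under 1 set to 1, the 99th percentile of each chip, a correction to 1 ng and no baseline transformation. The constants are not the percentiles computed here, and whether they hold the correction to 1 ng is unknown.

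Total signals were scaled to the 99th percentile of each array and taken to log2 with a common floor. The 474 miRNAs detected on at least 3 of 6 arrays were fitted with limma 3.58.1 in R 4.3.3 (two-sided moderated tests, Benjamini-Hochberg adjustment), with experiment as a block for substates, and with an F-test of experiment. Tables were made with Python 3.11.15, pandas 2.3.3 and numpy 2.4.6. Arrays were paired by the experiment in their labels. The correlation of the 2 arrays' deviations from their substate's mean was 0.674, 0.0307 and 0.517 in experiments 1, 2 and 3, so that the pairing shows little in experiment 2. The limma fit was tested on simulated data.

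The text names all 10 members, the brightest 2 other C19MC miRNAs, the 5 most alike outside C19MC, the brightest 2 of miR-302 with miR-367 and of miR-371 to miR-373, and markers by list. The members and lists were chosen with earlier results of these data known. Alternatives numbered 17 as planned (3 scalings, 2 floors, the deposited values, normexp, spot means, 2 filters, no block, an intensity trend, a paired test of each miRNA by itself, no 2-fold limit, each experiment left out) and 4 chosen after seeing the data (the sum over all probes, 2 spike-in scalings, signal per ng with 1 feature size).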

Additional observations from a re-analysis of the deposited data

How the results depend on the processing

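Over 21 alternatives, 4 of them chosen after seeing the data, limma or the paired test of single miRNAs called 0 members between substates. The substate contrast chose the members, and few or no miRNAs were called at all, so nothing is read from this about the members. Over all tested miRNAs the calls lower in substate 2 were 1 with no replicate block, and 2 each with normexp and with miRNAs detected on all 6 arrays. Calls higher were 1 with normexp and 5 with miRNAs detected on all 6 arrays, where fewer were tested (289). With 1 experiment left out, calls were 0 in both directions.

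Between experiments the calls over all miRNAs, 0 in the values reported, were 2 with quantile normalization, 13 with an intensity trend, 16 with miRNAs detected on at least 1 array, 34 with signal per ng and 1 feature size, 47 with the deposited values, 81 with signal per ng, 102 and 234 with the spike-ins (dmr_285 and dmr_31a, then dmr_3 and dmr_6) and 390 with normexp. Of the members, 3 were called with dmr_3 and dmr_6 and 10 with normexp. The fit with no block, the paired test and the rule without the 2-fold limit give no separate value here.

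Members at least 2-fold lower, 6 as reported, were 10 in the deposited values and 9 with either scaling per ng and either pair of spike-ins. They were 8 with each array's own floor and 6 with the 75th percentile and with miRNAs detected on at least 1 array. With signals under 1 set to 1 they were 5. They were 4 with spot means, and also 4 with the sum over all probes, to which a floor was applied again. With quantile normalization they were 2, as with miRNAs detected on all 6 arrays (where 2 members were left). They were 0 with normexp, and 3 to 7 with an experiment left out. Of all 474 tested miRNAs, 22 as reported, these were 72 in the deposited values, 97 with signal per ng, 68 with signal per ng and 1 feature size, 139 and 59 with the spike-ins, 32 with each array's own floor, 15 with signals under 1 set to 1, 13 with spot means, 13 with the sum over all probes, 8 with quantile normalization and 2 with normexp. The members' median, −1.14 as reported, was −2.21 in the deposited values, −1.81 with dmr_285 and dmr_31a, −1.70 with signal per ng, −0.36 with quantile normalization, 0.24 with normexp, and −1.32 to −0.80 with an experiment left out. Bright minus dim was 1.04 in the deposited values and −0.80 with quantile normalization, moved by less than its SD in the other alternatives, and ran from −0.25 to 0.06 with an experiment left out. It has no value with miRNAs detected on all 6 arrays, which leave no dim member. The cause was not tested for any of these changes.

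Of 162 values of single members under the alternatives, 152 were below 0. Of the 10 that were not, 8 came from normexp, 1 from quantile normalization and 1 from signals under 1 set to 1. Signal over background limits what can be said of the dim members: on the array of experiment 3 in substate 2 none of their probes passed 3 times its error. With 3 experiments, no difference between bright and dim members smaller than their spread could be seen.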
